A study of Homo sapiens with 20 samples.

Results

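The 33 genes described here encode proteins that carry a cell through mitosis: the kinases and cyclins that start it, the kinetochore and its checkpoint, the motors and microtubule-binding proteins of the spindle, the factors that end it, and topoisomerase II and Ki-67 on the chromosomes. They were chosen by name and role, with earlier results of these data known. All 33 were found by symbol among the 78932 gene identifiers of the count table, and all 33 were among the 20957 genes that passed the filter on low counts. Strand-specific RNA-seq of poly(A) RNA was made from OPM2 cells, a human multiple myeloma line whose tissue is labelled bone marrow. They were given panobinostat or romidepsin, each at 10 nM, or ricolinostat at 100 nM, for 2, 5 or 20 h, or the vehicle DMSO. Each of the 10 groups had 2 libraries, described as independent biological replicates, so n = 2 throughout. No harvest time is labelled for DMSO, so time in culture and inhibitor cannot be told apart in any contrast with DMSO, and the same 2 DMSO libraries serve all 9 of these contrasts. The ricolinostat dose is 100 nM in most labels and 10 nM in the treatment field of the same samples. Its values are therefore given beside those of the other inhibitors without a test between them.

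Histone deacetylase (HDAC) inhibitors raise the acetylation of histones and other proteins. Panobinostat is a hydroxamic acid that inhibits most zinc-dependent deacetylases, romidepsin is a cyclic depsipeptide directed mainly at the nuclear class I enzymes, and ricolinostat is a hydroxamic acid selected for the cytoplasmic enzyme HDAC6. In cycling cells the transcripts of mitosis genes accumulate late in the cycle. The DREAM complex holds them down in cells that leave the cycle, and B-MYB with the MuvB core, and then FOXM1, raise them. Both act through a short promoter element, the CHR, which often stands a fixed distance from CCAAT boxes bound by NF-Y.

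The promoters of these genes are shown because the element that joins them can be read in the sequence. Of the 33 genes, 27 were matched by symbol in a RefSeq table of the 300 bases from 250 before to 50 after each transcription start (GRCh38.p14). TPX2, FOXM1, TTK, BIRC5, AURKA and UBE2C were not matched. The CHR was searched as TTTGAA and the CCAAT box as CCAAT, each on both strands, where the other strand reads TTCAAA and ATTGG. The 6-base CHR was present in 20 of the 27 genes (74.1%) and in 18.2% of all 27305 genes in the table. The CCAAT box was present in 22 of 27 (81.5%), against 39.7% of all genes. Both stood in the window of 17 genes (63.0%), against 8.37% of all genes, and neither stood in that of CENPE and KIF2C. The last 100 bases before the start are given for 6 genes on GRCh38.p14, 5′ to 3′ on the gene's own strand, with CHR and CCAAT matches in capitals. PLK1, CCNB2, ESPL1 and KIF11 hold matches to both searched motifs close together, CCNB1 holds only CCAAT matches, and CENPE holds neither. Other spellings of the CHR, such as the TTTAAA that stands in the CCNB1 and CENPE sequences, were not searched. A gene without a TTTGAA match is therefore not shown to lack the element.
PLK1 (chr16:23678789-23678888, plus strand): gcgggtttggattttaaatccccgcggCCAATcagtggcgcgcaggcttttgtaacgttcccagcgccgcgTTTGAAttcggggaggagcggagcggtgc
CCNB2 (chr15:59105046-59105145, plus strand): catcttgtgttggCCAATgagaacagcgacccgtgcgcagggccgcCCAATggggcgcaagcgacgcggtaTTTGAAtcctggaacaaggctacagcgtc
ESPL1 (chr12:53268199-53268298, plus strand): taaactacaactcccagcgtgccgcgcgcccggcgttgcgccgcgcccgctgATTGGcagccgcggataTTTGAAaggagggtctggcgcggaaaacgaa
KIF11 (chr10:92593030-92593129, plus strand): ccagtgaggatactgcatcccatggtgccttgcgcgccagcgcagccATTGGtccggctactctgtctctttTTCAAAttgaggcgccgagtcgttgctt
CCNB1 (chr5:69167050-69167149, plus strand): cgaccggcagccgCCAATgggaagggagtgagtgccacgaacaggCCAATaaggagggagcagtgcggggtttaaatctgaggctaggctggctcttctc
CENPE (chr4:103198344-103198443, minus strand): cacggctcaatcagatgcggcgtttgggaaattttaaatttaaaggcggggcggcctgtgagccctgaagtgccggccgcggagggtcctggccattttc
The CHR began 29 bases before the start in PLK1 and CCNB2, 31 before it in ESPL1 and 28 before it in KIF11. A match is a run of letters and not a shown binding site.

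Most of these transcripts were lower than in DMSO with panobinostat at every time and with romidepsin at 20 h, while ricolinostat gave small differences in both directions. Changes are log2 fold changes of the inhibitor over DMSO from the edgeR quasi-likelihood fit, ± an SE computed from its F statistic. A gene is called where its Benjamini-Hochberg adjusted p over all 20957 genes is under 0.05, and levels are CPM after TMM scaling. With panobinostat at 2 h 23 of the 33 genes were lower and 2 higher, beside 18.1% of all genes lower and 20.8% higher. At 5 h 28 were lower and 3 higher, beside 25.9% and 30.7% of all genes. At 20 h 31 were lower and 1 higher, beside 32.3% and 40.8% of all genes, and 22 of the 33 had fallen at least 2-fold, as had 17.8% of all genes. The median log2 fold change of the 33 genes was -0.37, -0.67 and -1.19 at 2, 5 and 20 h, beside 0.0052, 0.12 and 0.25 for all genes tested.

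With romidepsin at 2 h 4 genes were lower and 3 higher, beside 4.62% and 3.55% of all genes, and 6 of these 7 calls were lost when 1 library was left out. At 5 h 19 were lower and 2 higher, beside 16.5% and 13.0% of all genes. At 20 h 28 were lower and 2 higher, beside 29.9% and 38.6% of all genes, with 13 lower at least 2-fold, beside 13.5% of all genes. The medians were 0.018, -0.17 and -0.82, beside 0.00, 0.019 and 0.22 for all genes. The 5 h count rests on the scaling: with scaling by library size alone 9 were lower and 8 higher, and the share of all calls that were higher was 71.3% in place of 44.1%. At 20 h that scaling gave 22 lower and 4 higher.

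With ricolinostat 15 genes were lower and 7 higher at 2 h, beside 14.5% and 16.9% of all genes, and 3 were higher without any 1 of the 4 libraries, with RLE size factors or with DESeq2. At 5 h 14 were lower and 6 higher, beside 15.3% and 18.8%, and at 20 h 5 were lower and 8 higher, beside 16.4% and 14.7%. None of the 33 moved by 1.5-fold with a passed test at any of these times. The share of all genes past that threshold was not counted, so this does not set the 33 genes apart from other genes. With scaling by library size alone 1 was lower and 13 higher at 20 h, and 66.2% in place of 47.3% of all calls were higher.

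**Figure D1:**
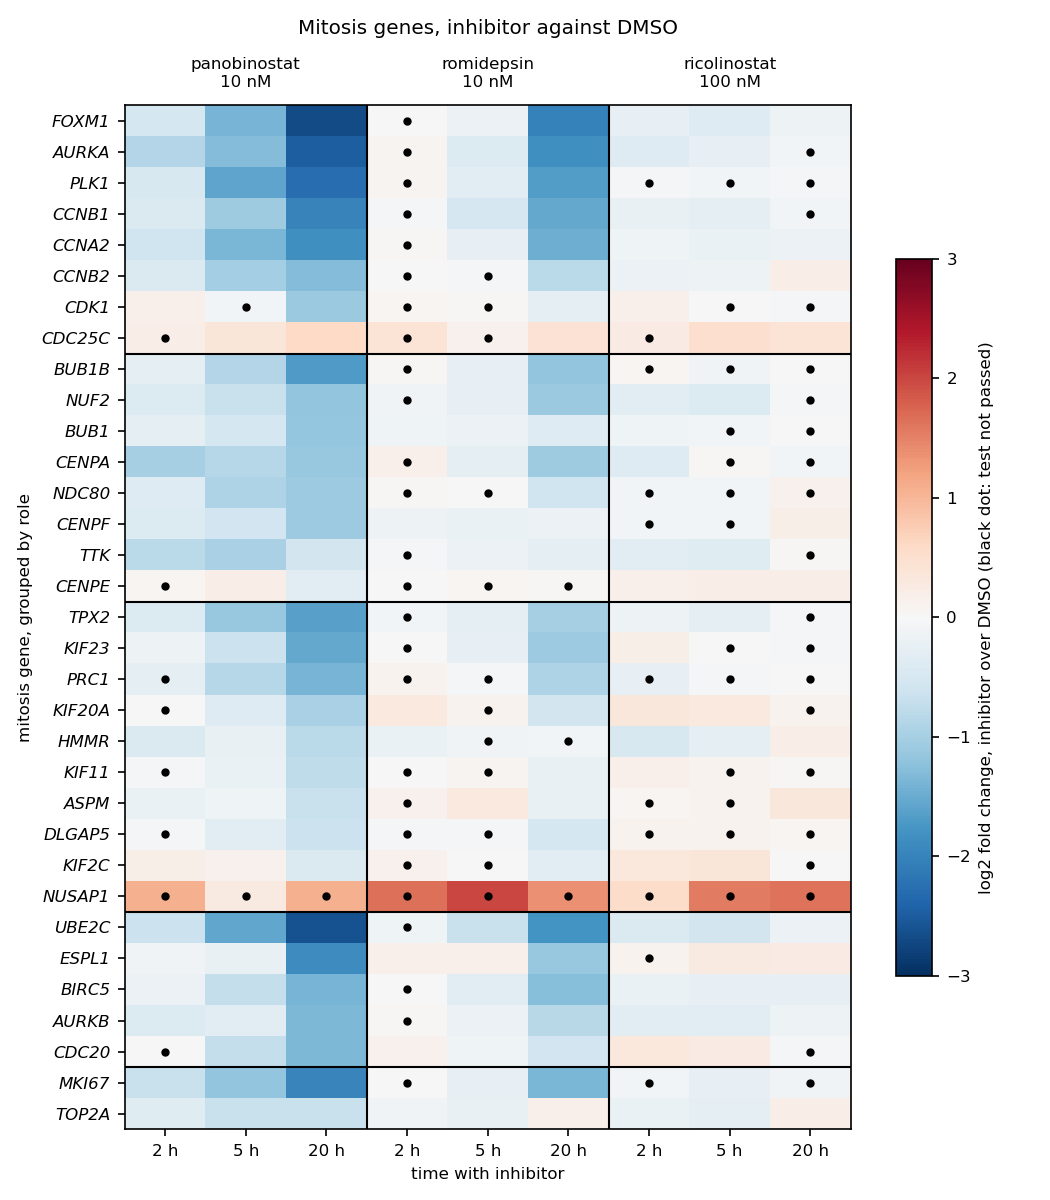
Log2 fold change over DMSO of the 33 mitosis genes (rows, grouped by role and ordered by the panobinostat 20 h change) in the 9 inhibitor and time groups (columns), blue for lower and red for higher; black dots mark values that did not pass the test. Most rows of the panobinostat columns darken with time, the romidepsin column at 20 h is the only dark one of that inhibitor, and CDC25C and NUSAP1 are the rows that stay red.

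The 33 genes together held 0.561% and 0.604% of all raw counts with panobinostat at 2 h, 0.493% and 0.502% at 5 h, and 0.378% and 0.383% at 20 h, against 0.738% and 0.748% in DMSO. With romidepsin the share was 0.762% and 0.756%, 0.721% and 0.720%, and 0.558% and 0.557%. With ricolinostat it was 0.697% and 0.702%, 0.707% and 0.691%, and 0.819% and 0.808%. The panobinostat libraries lay below DMSO at each time, and the romidepsin libraries above it at 2 h and below it at 5 and 20 h. The ricolinostat libraries lay below it at 2 and 5 h and above it at 20 h. These shares are of raw counts, without TMM scaling. As summed CPM after scaling, both romidepsin libraries at 2 h lay below DMSO. With ricolinostat at 20 h the sums were 8184.08 and 8025.98 CPM, against 7910.17 and 7986.15 CPM in DMSO, a smaller relative gap. The median log2 fold change of the 33 genes there was 0.00378. In a bulk sample fewer cells in mitosis and less mRNA per cell cannot be told apart.

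**Figure D2:**
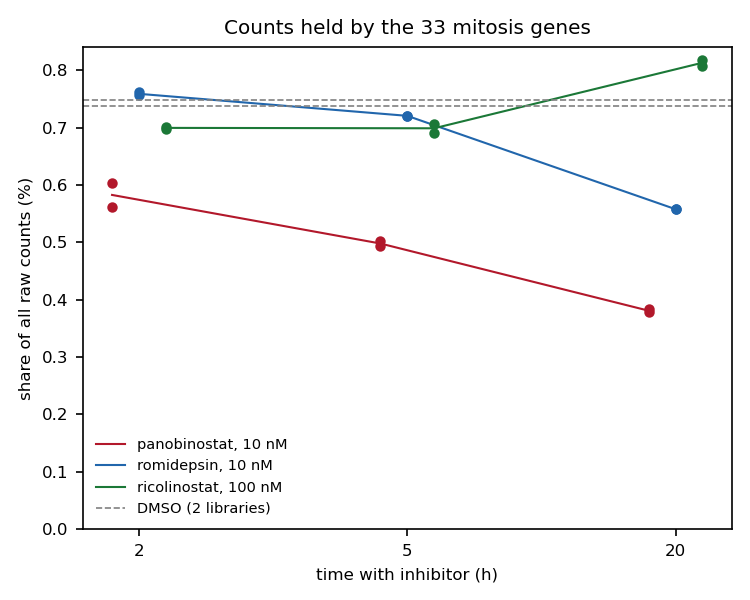
Share of all raw counts (%) held by the 33 mitosis genes in each library against time with the inhibitor; points are libraries, solid lines join group means and dashed lines are the 2 DMSO libraries. Panobinostat reaches 0.378% and 0.383% at 20 h, romidepsin 0.558% and 0.557%, and ricolinostat 0.819% and 0.808%, against 0.738% and 0.748% in DMSO.

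Total counts ran from 17264640 to 29088868 over the 20 libraries. Of 10 plasma cell markers none was at 0 in any group, and their summed level was 681 to 699 CPM with panobinostat at 20 h and 1353 to 1370.0 CPM with romidepsin at 20 h, against 9012 to 9024 CPM in DMSO. Of 9 stromal and epithelial markers, 2 were at 0 counts with panobinostat and 4 with romidepsin at 20 h, against 8 in DMSO, and their summed level was 35.7 to 37.5 CPM, 26.9 to 29.4 CPM and 0 to 0.0745 CPM in these groups. Summed markers of T and NK, myeloid and erythroid cells were at most 7.13 CPM in any library. Mitochondrial genes held 6.60% and 6.08% of counts with panobinostat at 20 h, 5.48% and 5.36% with romidepsin at 20 h, and 4.69% and 4.41% in DMSO. The part of these differences in the results on mitosis genes was not tested. The 2 libraries of panobinostat at 2 h differed more from each other than those of any other group (6.48 as chi-square over degrees of freedom, with 2.36 to 4.25 elsewhere).

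In DMSO the genes spanned a wide range of levels per length. TOP2A, CDC20, TPX2 and UBE2C led, with 135 ± 2.56, 133 ± 1.32, 131 ± 2.72 and 127 ± 5.72 RPKM (SD, n = 2), and neighbours in this order lay within their spread. CCNA2 and CCNB1 followed at 100.5 ± 0.998 and 99.8 ± 0.380 RPKM. The lowest were TTK at 17.3 ± 0.196, CDC25C at 2.53 ± 0.385, PRC1 at 0.945 ± 0.133 and NUSAP1 at 0.0489 ± 0.0142 RPKM. NUSAP1 and PRC1 each share exon bases with a second gene on the same strand in GENCODE 29. AC087721.2 covers 62.2% of the exon bases of NUSAP1 and has 0 counts in every library, while NUSAP1 has 3 to 14. AC068831.7 covers 57.6% of those of PRC1 and has 63 to 244 counts, while PRC1 has 41 to 154. How reads shared by genes were counted is not given in the sources used here, so the levels of NUSAP1 and PRC1 are uncertain. Smaller overlaps exist for BUB1B, which shares 10.2% of its exon bases with BUB1B-PAK6 on the same strand (0 counts in every library). CENPA shares 6.96% with SLC35F6 on the same strand. On the other strand PLK1 shares 11.6% with AC008870.3 (0 to 5 counts) and CCNA2 shares 9.08% with EXOSC9.

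Of the 8 genes for entry into mitosis, 6, 6 and 7 were lower with panobinostat at 2, 5 and 20 h, with medians of -0.46, -1.18 and -1.93, the lowest of the 5 roles at 5 and 20 h. With romidepsin 0, 5 and 7 were lower by edgeR (at 2 h also 0 at an unadjusted p under 0.05 and 0 with DESeq2), with medians of 0.052, -0.21 and -1.50. FOXM1, the transcription factor that raises mitosis genes late in the cycle (ENSG00000111206, chromosome 12, 2857681 to 2877155, GRCh38), had 157 and 168 CPM at 2 h, 87.4 and 88.8 CPM at 5 h and 37.8 and 35.0 CPM at 20 h with panobinostat, against 230.4 and 236 CPM in DMSO. FOXM1 had 233 and 234 CPM at 2 h, 209.8 and 204 CPM at 5 h and 57.8 and 56.1 CPM at 20 h with romidepsin. FOXM1 had 194 and 199 CPM at 2 h, 181 and 176 CPM at 5 h and 209 and 208 CPM at 20 h with ricolinostat. All panobinostat and ricolinostat libraries lay below both DMSO libraries, and those of romidepsin did so at 5 and 20 h. The changes were -0.52 ± 0.05, -1.40 ± 0.05 and -2.68 ± 0.05 with panobinostat (adjusted p = 4.2e-71 at 20 h), the largest fall of the 33 genes, and 0.005 ± 0.04 (adjusted p = 1), -0.17 ± 0.04 and -2.03 ± 0.05 with romidepsin. With scaling by library size alone the romidepsin change at 5 h was -0.044 (adjusted p = 0.48). The gene shares 15.9% of its exon bases with ITFG2 on the other strand, and the strand setting of the counting is not given in the sources used here.

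AURKA and PLK1, the kinases that mature centrosomes and drive entry, and CCNB1 and CCNA2, the cyclins that activate CDK1, fell with both inhibitors at 20 h. They changed by -2.47 ± 0.06, -2.29 ± 0.05, -2.00 ± 0.05 and -1.85 ± 0.05 with panobinostat. In the same order they changed by -1.84 ± 0.06, -1.68 ± 0.05, -1.54 ± 0.05 and -1.47 ± 0.05 with romidepsin. With panobinostat at 2 h AURKA was already at -0.89 ± 0.06. PLK1 had 62.7 and 75.2 CPM with panobinostat at 20 h and 110.0 and 102 CPM with romidepsin, against 339 and 340.2 CPM in DMSO.

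CDK1, the kinase at the centre of mitotic entry (ENSG00000170312, chromosome 10, 60778331 to 60794852), did not share the early fall. It had 129 and 127 CPM at 2 h, 111 and 108 CPM at 5 h and 50.9 and 55.9 CPM at 20 h with panobinostat, against 117 and 115 CPM in DMSO. CDK1 had 120.5 and 122 CPM at 2 h, 122 and 116 CPM at 5 h and 95.7 and 95.4 CPM at 20 h with romidepsin. CDK1 had 130.3 and 126 CPM at 2 h, 115 and 114 CPM at 5 h and 114 and 108 CPM at 20 h with ricolinostat. The panobinostat libraries stood above DMSO at 2 h, below it at 5 h and far below it at 20 h. The log2 fold changes with panobinostat were 0.15 ± 0.05 (adjusted p = 0.014), -0.08 ± 0.05 (adjusted p = 0.17) and -1.11 ± 0.05 (adjusted p = 6.7e-37). The 2 h call ended without panobinostat 2 h replicate 1 or 2 or DMSO replicate 1 or 2 (0.09 to 0.14, adjusted p = 0.095 to 0.33). With romidepsin it changed by -0.28 ± 0.05 at 20 h (adjusted p = 1.1e-06), or -0.04 (adjusted p = 0.46) with scaling by library size alone. With ricolinostat at 2 h it changed by 0.15 ± 0.05, a call lost without ricolinostat 2 h replicate 1 or 2 or DMSO replicate 1 or 2 (0.04 to 0.14, adjusted p = 0.13 to 0.82).

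CCNB2, the second B-type cyclin, had 91.2 and 92.6 CPM at 2 h, 60.6 and 62.5 CPM at 5 h and 50.4 and 50.1 CPM at 20 h with panobinostat, against 124 and 125 CPM in DMSO. CCNB2 had 122 and 129.7 CPM at 2 h, 118 and 119 CPM at 5 h and 69.3 and 71.5 CPM at 20 h with romidepsin. CCNB2 had 109 and 111 CPM at 2 h, 115 and 107 CPM at 5 h and 142 and 142 CPM at 20 h with ricolinostat. The ricolinostat libraries lay below DMSO at 2 and 5 h and above it at 20 h, and all those of panobinostat lay below it. The log2 fold changes were -0.44 ± 0.05, -1.01 ± 0.05 and -1.31 ± 0.05 with panobinostat, -0.82 ± 0.05 with romidepsin at 20 h and -0.17 ± 0.05, -0.16 ± 0.05 and 0.19 ± 0.05 with ricolinostat. The ricolinostat call at 5 h was lost without ricolinostat 5 h replicate 2 (-0.14, adjusted p = 0.091). CDC25C, the phosphatase that activates CDK1, was the only gene of the 33 higher with panobinostat at 20 h, at a low level. It had 12.4 and 13.4 CPM there and 12.5 and 10.6 CPM with romidepsin at 20 h, against 7.54 and 9.35 CPM in DMSO. CDC25C shares 8.78% of its exon bases with FAM53C on the other strand, which had 1550 to 5839 counts a library against 164 to 446 for CDC25C, and with the strand setting of the counting not given its level is uncertain. CDC25C rose by 0.61 ± 0.14 with panobinostat (adjusted p = 7.2e-05) and 0.44 ± 0.14 with romidepsin (adjusted p = 0.005), and the romidepsin call was lost without romidepsin 20 h replicate 1 or DMSO replicate 1 (0.24 to 0.25, adjusted p = 0.2 to 0.23).

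**Figure D3:**
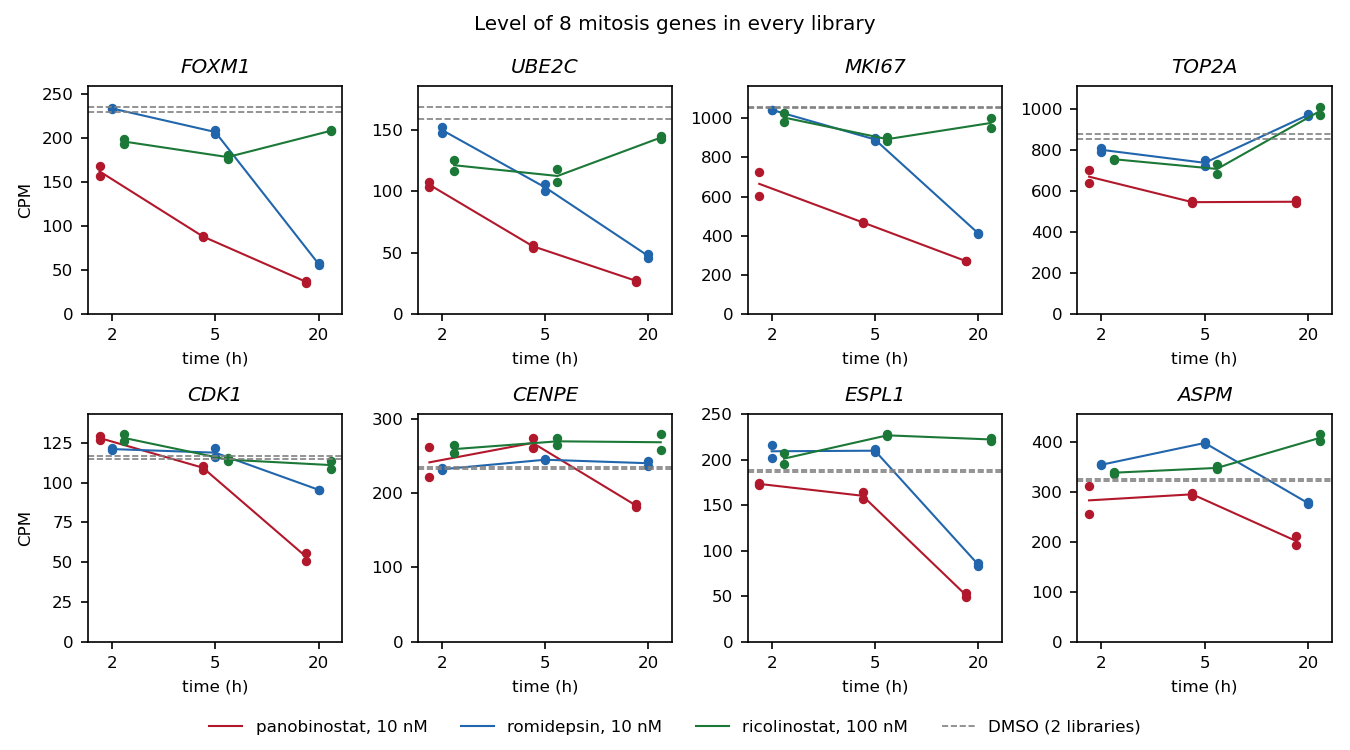
CPM of 8 mitosis genes in each library (points) against time with panobinostat, romidepsin or ricolinostat; solid lines join group means and dashed lines are the 2 DMSO libraries. FOXM1, UBE2C and MKI67 fall stepwise with panobinostat and mainly between 5 and 20 h with romidepsin, CDK1 and ESPL1 fall mainly after 5 h with both, and TOP2A with romidepsin at 20 h (968 and 976 CPM) lies above DMSO (857 and 880.1 CPM).

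Of the 8 genes of the centromere, kinetochore and spindle checkpoint, 7, 7 and 8 were lower with panobinostat at 2, 5 and 20 h and 2, 6 and 7 with romidepsin. Their medians at 20 h were -1.12 with panobinostat and -0.49 with romidepsin. BUB1B, which encodes the checkpoint protein BUBR1 (ENSG00000156970, chromosome 15, 40161023 to 40221136), had 100.4 and 107 CPM at 2 h, 70.4 and 68.1 CPM at 5 h and 38.9 and 40.0 CPM at 20 h with panobinostat, against 123 and 131 CPM in DMSO. BUB1B had 132 and 127 CPM at 2 h, 108 and 105 CPM at 5 h and 54.4 and 56.8 CPM at 20 h with romidepsin. BUB1B had 129.6 and 138 CPM at 2 h, 123 and 114 CPM at 5 h and 126 and 132 CPM at 20 h with ricolinostat. The panobinostat libraries lay below DMSO at each time and the romidepsin libraries at 5 and 20 h, while those of ricolinostat lay within or near the DMSO range. It changed by -0.30 ± 0.05, -0.88 ± 0.06 and -1.69 ± 0.06 with panobinostat (adjusted p = 2.2e-49 at 20 h) and by -0.26 ± 0.05 and -1.19 ± 0.06 with romidepsin at 5 and 20 h.

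CENPE, the kinesin that carries chromosomes to the spindle equator (ENSG00000138778, chromosome 4, 103105806 to 103198409), had the smallest changes of this role at 20 h. It had 221 and 262 CPM at 2 h, 261 and 275 CPM at 5 h and 182 and 185 CPM at 20 h with panobinostat, against 236 and 232 CPM in DMSO. CENPE had 233 and 231 CPM at 2 h, 246 and 244 CPM at 5 h and 244 and 237 CPM at 20 h with romidepsin. CENPE had 254 and 264 CPM at 2 h, 274 and 265 CPM at 5 h and 279 and 258 CPM at 20 h with ricolinostat. Panobinostat at 20 h was the only group with both libraries below both DMSO libraries, and its 2 libraries at 2 h lay on either side of them. With panobinostat it was at 0.05 ± 0.05 (adjusted p = 0.46), 0.20 ± 0.05 (adjusted p = 1.9e-04) and -0.35 ± 0.05 (adjusted p = 2.9e-10). The 5 h call was lost without panobinostat 5 h replicate 2 (0.13, adjusted p = 0.065), the value at 2 h was -0.15 (adjusted p = 0.039) without panobinostat 2 h replicate 2, and with scaling by library size alone the 20 h value was -0.046 (adjusted p = 0.37). With romidepsin at 20 h it was at 0.04 ± 0.05 (adjusted p = 0.46), or 0.28 (adjusted p = 1.0e-06) with scaling by library size alone.

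The other 6 of this role fell with panobinostat at 20 h by different amounts. NUF2 and NDC80, which form the microtubule-binding arm of the kinetochore, changed by -1.19 ± 0.05 and -1.10 ± 0.06, BUB1, the checkpoint kinase, by -1.17 ± 0.04, and CENPF by -1.09 ± 0.04. CENPA, the centromeric histone H3 variant, was at -0.99 ± 0.09 already at 2 h and at -1.13 ± 0.09 at 20 h. TTK, the kinase that starts checkpoint signalling, was lowest at 5 h. It changed by -0.81 ± 0.06, -0.98 ± 0.07 and -0.55 ± 0.06, and its level at 20 h was higher than at 5 h (0.44 ± 0.07, adjusted p = 1.7e-08). It had 55.9 and 52.7 CPM at 20 h and 41.7 and 38.8 CPM at 5 h, against 79.9 and 78.6 CPM in DMSO. With romidepsin at 20 h CENPF changed by only -0.18 ± 0.04, and with scaling by library size alone it was at 0.052 (adjusted p = 0.32).

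Of the 10 spindle motors and microtubule-binding proteins, 4, 8 and 9 were lower with panobinostat and 1, 2 and 8 with romidepsin at 2, 5 and 20 h. Medians at 20 h were -0.78 and -0.42. TPX2, which activates Aurora A on the spindle, KIF23, the kinesin of the central spindle, and PRC1, which bundles its microtubules, had the largest falls of this role with panobinostat at 20 h, at -1.63 ± 0.04, -1.53 ± 0.05 and -1.41 ± 0.23. KIF11, the motor that separates spindle poles, and DLGAP5, which stabilises spindle fibres, changed by -0.75 ± 0.04 and -0.65 ± 0.06. With romidepsin at 20 h KIF11 changed by -0.23 ± 0.04, or 0.0031 (adjusted p = 0.95) with scaling by library size alone. NUSAP1, a microtubule bundler, passed no test in the 18 contrasts as fitted, with 3 to 14 counts a library. With scaling by library size alone it passed with romidepsin at 5 h, at 2.14 (adjusted p = 0.044). It had 4 and 3 counts in DMSO, under the minimum of 10, and 13 and 14 with romidepsin at 5 h. It thus entered the test through groups where its counts were higher, this one among them, and that pass is no evidence of a rise.

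KIF2C, a kinesin that takes microtubules apart at centromeres (ENSG00000142945, chromosome 1, 44739818 to 44767767), had 191 and 189 CPM at 2 h, 179 and 183 CPM at 5 h and 121 and 125 CPM at 20 h with panobinostat, against 165 and 169 CPM in DMSO. KIF2C had 180.4 and 182 CPM at 2 h, 166 and 169 CPM at 5 h and 134 and 135 CPM at 20 h with romidepsin. KIF2C had 203 and 211 CPM at 2 h, 217 and 210.0 CPM at 5 h and 166 and 168 CPM at 20 h with ricolinostat. The panobinostat libraries stood above both DMSO libraries at 2 and 5 h and below them at 20 h. It changed by 0.18 ± 0.04, 0.12 ± 0.04 and -0.44 ± 0.04 (adjusted p = 6.9e-16 at 20 h), and the higher calls were lost without panobinostat 2 h replicate 2 (0.12, adjusted p = 0.11) at 2 h and without panobinostat 5 h replicate 1 or 2 or DMSO replicate 1 or 2 (0.07 to 0.10, adjusted p = 0.14 to 0.35) at 5 h. With ricolinostat it was higher at 2 and 5 h, by 0.31 ± 0.04 and 0.35 ± 0.04. With romidepsin at 20 h it changed by -0.31 ± 0.04, or -0.078 (adjusted p = 0.089) with scaling by library size alone.

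KIF20A, the kinesin that brings passenger proteins to the central spindle (ENSG00000112984, chromosome 5, 138178719 to 138187715), had 76.3 and 81.9 CPM at 2 h, 57.5 and 64.1 CPM at 5 h and 36.8 and 43.6 CPM at 20 h with panobinostat, against 78.6 and 80.4 CPM in DMSO. KIF20A had 94.4 and 99.8 CPM at 2 h, 81.6 and 89.6 CPM at 5 h and 55.4 and 53.6 CPM at 20 h with romidepsin. KIF20A had 98.6 and 103 CPM at 2 h, 100.0 and 94.1 CPM at 5 h and 85.0 and 86.2 CPM at 20 h with ricolinostat. The romidepsin libraries lay above DMSO at 2 and 5 h and below it at 20 h, and all ricolinostat libraries lay above it. With romidepsin it rose by 0.29 ± 0.06 at 2 h (adjusted p = 2.5e-04) and changed by -0.55 ± 0.06 at 20 h (adjusted p = 3.2e-13). With ricolinostat it rose by 0.34 ± 0.06 at 2 h and 0.29 ± 0.06 at 5 h, the second a call lost without ricolinostat 5 h replicate 1 (0.13, adjusted p = 0.2).

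HMMR, a hyaluronan receptor that also organises spindle poles (ENSG00000072571, chromosome 5, 163460203 to 163491945), had 50.3 and 51.2 CPM at 2 h, 59.0 and 58.0 CPM at 5 h and 35.9 and 41.8 CPM at 20 h with panobinostat, against 67.0 and 69.7 CPM in DMSO. HMMR had 60.6 and 58.9 CPM at 2 h, 62.4 and 63.8 CPM at 5 h and 65.5 and 63.9 CPM at 20 h with romidepsin. HMMR had 49.9 and 48.5 CPM at 2 h, 56.2 and 54.6 CPM at 5 h and 79.4 and 76.4 CPM at 20 h with ricolinostat. The panobinostat and romidepsin libraries lay below both DMSO libraries at each time, and those of ricolinostat lay below them at 2 and 5 h and above them at 20 h. The log2 fold changes were -0.43 ± 0.06, -0.23 ± 0.06 and -0.81 ± 0.06 with panobinostat, -0.19 ± 0.06, -0.12 ± 0.06 and -0.08 ± 0.06 with romidepsin and -0.48 ± 0.06, -0.30 ± 0.06 and 0.19 ± 0.06 with ricolinostat. With romidepsin the 2 h call was lost without romidepsin 2 h replicate 1 or 2 or DMSO replicate 1 or 2 (-0.24 to -0.18, adjusted p = 0.061 to 0.24), and the values at 5 and 20 h did not pass (adjusted p = 0.17 and adjusted p = 0.25). The panobinostat value at 5 h was -0.095 (adjusted p = 0.19), the romidepsin value at 2 h -0.15 (adjusted p = 0.14) and the romidepsin value at 20 h 0.16 (adjusted p = 0.018) with scaling by library size alone. The ricolinostat rise at 20 h was lost without ricolinostat 20 h replicate 1 or DMSO replicate 1 (0.15, adjusted p = 0.17, without either).

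ASPM, a spindle pole protein (ENSG00000066279, chromosome 1, 197084128 to 197146694), had 255 and 312 CPM at 2 h, 293 and 298 CPM at 5 h and 194 and 211 CPM at 20 h with panobinostat, against 323 and 326 CPM in DMSO. ASPM had 355 and 354 CPM at 2 h, 397 and 401 CPM at 5 h and 276 and 279.8 CPM at 20 h with romidepsin. ASPM had 337 and 341 CPM at 2 h, 346 and 352 CPM at 5 h and 416 and 403 CPM at 20 h with ricolinostat. The panobinostat libraries lay below DMSO at each time, while the romidepsin libraries lay above it at 2 and 5 h and below it at 20 h. With romidepsin it rose by 0.30 ± 0.05 at 5 h (adjusted p = 7.4e-06) and changed by -0.22 ± 0.05 at 20 h, or 0.014 (adjusted p = 0.85) with scaling by library size alone. With panobinostat the log2 fold changes were -0.19 ± 0.05, -0.13 ± 0.05 and -0.68 ± 0.05. The 2 h call ended without panobinostat 2 h replicate 1 (-0.08, adjusted p = 0.27), and with scaling by library size alone the 5 h value was -0.0029 (adjusted p = 0.98). With ricolinostat at 20 h it rose by 0.34 ± 0.05.

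All 5 genes of the chromosomal passengers, anaphase and exit were lower at 20 h with panobinostat and with romidepsin, with medians of -1.41 and -1.15, and all 5 had fallen at least 2-fold with panobinostat. UBE2C, the ubiquitin-conjugating enzyme of the anaphase-promoting complex (ENSG00000175063, chromosome 20, 45812576 to 45816957), had 107 and 103 CPM at 2 h, 53.9 and 56.5 CPM at 5 h and 27.5 and 26.3 CPM at 20 h with panobinostat, against 169 and 159 CPM in DMSO. UBE2C had 152 and 148 CPM at 2 h, 106 and 100.2 CPM at 5 h and 49.0 and 45.2 CPM at 20 h with romidepsin. UBE2C had 126 and 117 CPM at 2 h, 118 and 107 CPM at 5 h and 145 and 142 CPM at 20 h with ricolinostat. All 18 inhibitor libraries lay below both DMSO libraries. The log2 fold changes were -0.64 ± 0.05, -1.57 ± 0.06 and -2.61 ± 0.06 with panobinostat (adjusted p = 5.2e-64 at 20 h), -0.66 ± 0.05 and -1.80 ± 0.06 with romidepsin at 5 and 20 h, and -0.43 ± 0.05, -0.54 ± 0.05 and -0.19 ± 0.05 with ricolinostat. The ricolinostat call at 20 h was lost without DMSO replicate 1 (-0.15, adjusted p = 0.091), and with scaling by library size alone the value was -0.085 (adjusted p = 0.21). BIRC5, which encodes survivin, and AURKB, the passenger kinase, changed by -1.41 ± 0.05 and -1.35 ± 0.05 with panobinostat at 20 h, and by -1.28 ± 0.05 and -0.84 ± 0.05 with romidepsin.

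CDC20, the activator of the anaphase-promoting complex at anaphase (ENSG00000117399, chromosome 1, 43358955 to 43363203), had 275 and 264 CPM at 2 h, 166 and 164 CPM at 5 h and 105 and 108 CPM at 20 h with panobinostat, against 269 and 273 CPM in DMSO. CDC20 had 297 and 297 CPM at 2 h, 256 and 242 CPM at 5 h and 191 and 175 CPM at 20 h with romidepsin. CDC20 had 336 and 335 CPM at 2 h, 323 and 315 CPM at 5 h and 263 and 264 CPM at 20 h with ricolinostat. The ricolinostat libraries lay above DMSO at 2 and 5 h and below it at 20 h, and the panobinostat libraries lay well below it from 5 h. The log2 fold changes were -0.01 ± 0.04, -0.72 ± 0.04 and -1.35 ± 0.04 with panobinostat, where 2 h did not pass (adjusted p = 0.96), and 0.13 ± 0.04, -0.12 ± 0.04 and -0.57 ± 0.04 with romidepsin. The romidepsin calls were lost without romidepsin 2 h replicate 1 or 2 or DMSO replicate 1 or 2 (0.11 to 0.13, adjusted p = 0.23 to 0.35) at 2 h and without romidepsin 5 h replicate 2 or DMSO replicate 2 (-0.13 to -0.10, adjusted p = 0.095 to 0.18) at 5 h, and with scaling by library size alone the 5 h value was 0.0027 (adjusted p = 1). With ricolinostat it rose by 0.31 ± 0.04 at 2 h.

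ESPL1, which encodes separase, the protease that cuts cohesin at anaphase (ENSG00000135476, chromosome 12, 53268299 to 53293643), had 173 and 174 CPM at 2 h, 157 and 164 CPM at 5 h and 53.8 and 48.8 CPM at 20 h with panobinostat, against 187 and 189 CPM in DMSO. ESPL1 had 202 and 217 CPM at 2 h, 208 and 212 CPM at 5 h and 83.4 and 86.1 CPM at 20 h with romidepsin. ESPL1 had 208 and 195 CPM at 2 h, 226 and 228 CPM at 5 h and 224 and 221 CPM at 20 h with ricolinostat. The romidepsin and ricolinostat libraries lay above both DMSO libraries at 2 and 5 h, those of ricolinostat also at 20 h, and those of panobinostat and romidepsin lay far below at 20 h. ESPL1 was at -0.11 ± 0.05, -0.23 ± 0.05 and -1.88 ± 0.05 with panobinostat, at 0.16 ± 0.05, 0.16 ± 0.05 and -1.15 ± 0.05 with romidepsin and at 0.10 ± 0.05, 0.27 ± 0.05 and 0.24 ± 0.05 with ricolinostat (log2 fold changes). At 20 h the falls had adjusted p = 3.1e-58 with panobinostat and adjusted p = 2.7e-41 with romidepsin. The 2 h call of panobinostat ended without panobinostat 2 h replicate 1 or DMSO replicate 1 or 2 (-0.14 to -0.12, adjusted p = 0.058 to 0.12), and at 5 h the value was -0.095 (adjusted p = 0.06) with scaling by library size alone. The romidepsin rises were lost without romidepsin 2 h replicate 2 or DMSO replicate 1 or 2 (0.09 to 0.15, adjusted p = 0.15 to 0.49) at 2 h and without romidepsin 5 h replicate 2 or DMSO replicate 1 (0.13 to 0.14, adjusted p = 0.084 to 0.091) at 5 h.

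Of the pair on chromosomes, MKI67, which encodes the proliferation mark Ki-67 (ENSG00000148773, chromosome 10, 128096659 to 128126385), had 605 and 725 CPM at 2 h, 466 and 471 CPM at 5 h and 269 and 271 CPM at 20 h with panobinostat, against 1055 and 1059.6 CPM in DMSO. MKI67 had 1044 and 1044 CPM at 2 h, 901 and 883 CPM at 5 h and 409.5 and 415 CPM at 20 h with romidepsin. MKI67 had 979.5 and 1029 CPM at 2 h, 904 and 883 CPM at 5 h and 1003 and 949 CPM at 20 h with ricolinostat. Every inhibitor library lay below both DMSO libraries, and those of romidepsin at 2 h came closest to them. It changed by -0.67 ± 0.05, -1.18 ± 0.05 and -1.97 ± 0.05 with panobinostat (adjusted p = 2.0e-31 at 20 h) and by -0.25 ± 0.05 and -1.36 ± 0.05 with romidepsin at 5 and 20 h. With scaling by library size alone the romidepsin value at 5 h was -0.12 (adjusted p = 0.14).

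TOP2A, topoisomerase II alpha, which untangles sister chromatids (ENSG00000131747, chromosome 17, 40388516 to 40417950), parted from MKI67 at 20 h. It had 639 and 702 CPM at 2 h, 539.5 and 553 CPM at 5 h and 541 and 555 CPM at 20 h with panobinostat, against 857 and 880.1 CPM in DMSO. TOP2A had 810.1 and 794 CPM at 2 h, 753 and 723 CPM at 5 h and 968 and 976 CPM at 20 h with romidepsin. TOP2A had 754 and 757 CPM at 2 h, 733 and 683 CPM at 5 h and 1013 and 973 CPM at 20 h with ricolinostat. The romidepsin and ricolinostat libraries lay below DMSO at 2 and 5 h and above it at 20 h, and the panobinostat libraries were level between 5 and 20 h. TOP2A was at -0.37 ± 0.04, -0.67 ± 0.04 and -0.66 ± 0.04 with panobinostat, at -0.12 ± 0.04, -0.23 ± 0.04 and 0.16 ± 0.04 with romidepsin and at -0.20 ± 0.04, -0.29 ± 0.04 and 0.19 ± 0.04 with ricolinostat (log2 fold changes). The romidepsin rise at 20 h was lost without romidepsin 20 h replicate 1 or DMSO replicate 1 (0.09 to 0.10, adjusted p = 0.082 to 0.18), and the romidepsin fall at 2 h was lost without romidepsin 2 h replicate 1 or 2 or DMSO replicate 1 or 2 (-0.15 to -0.11, adjusted p = 0.059 to 0.24) and was -0.068 (adjusted p = 0.25) with scaling by library size alone.

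Romidepsin and panobinostat, both at 10 nM, were compared at each of the 3 times, the only pair with matched molar doses. No label gives the extent of deacetylase inhibition, so equal molar doses need not be equal in effect. The log2 difference is romidepsin over panobinostat. At 2 h 25 of 33 genes were higher with romidepsin than with panobinostat and 0 lower, beside 17.3% and 19.8% of all genes. At 5 h 28 were higher and 2 lower, beside 24.8% and 25.9%, and at 20 h 27 were higher and 0 lower, beside 23.4% and 18.3%. The counts of 0 lower at 2 and 20 h are from edgeR, and they were also 0 at an unadjusted p under 0.05 and with DESeq2. The medians were 0.32, 0.49 and 0.49, beside 0.00, -0.013 and 0.0013 for all genes.

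At 2 h CENPA differed most, by 1.14 ± 0.09 (adjusted p = 4.0e-21), with 46.1 and 42.5 CPM with romidepsin and 20.4 and 19.7 CPM with panobinostat, and AURKA followed at 0.97 ± 0.06. At 5 h PLK1 differed by 1.27 ± 0.05 and FOXM1 by 1.23 ± 0.05 (adjusted p = 5.1e-43). PLK1 had 281 and 267 CPM with romidepsin and 117 and 111 CPM with panobinostat at 5 h, with no overlap. At 20 h CENPF, CDK1, TOP2A and UBE2C differed most, by 0.91 ± 0.04, 0.84 ± 0.05, 0.83 ± 0.04 and 0.81 ± 0.06. CENPF had 709 and 709.7 CPM with romidepsin and 374 and 382 CPM with panobinostat at 20 h. CENPA, by contrast, was at 0.07 ± 0.09 (adjusted p = 0.61) and NUF2 at 0.08 ± 0.05 (adjusted p = 0.24) at 20 h, and a p that misses the threshold does not show that the inhibitors acted alike on them. CDC25C, DLGAP5, PRC1 and NUSAP1 also did not pass at 20 h. The genes lower with romidepsin at 5 h were CENPE, -0.13 ± 0.05, and KIF2C, -0.12 ± 0.04. Those calls were lost without panobinostat 5 h replicate 2 or romidepsin 5 h replicate 1 or 2 (-0.13 to -0.07, adjusted p = 0.059 to 0.34) for CENPE and without panobinostat 5 h replicate 1 or 2 or romidepsin 5 h replicate 1 (-0.12 to -0.09, adjusted p = 0.098 to 0.27) for KIF2C.

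**Figure D4:**
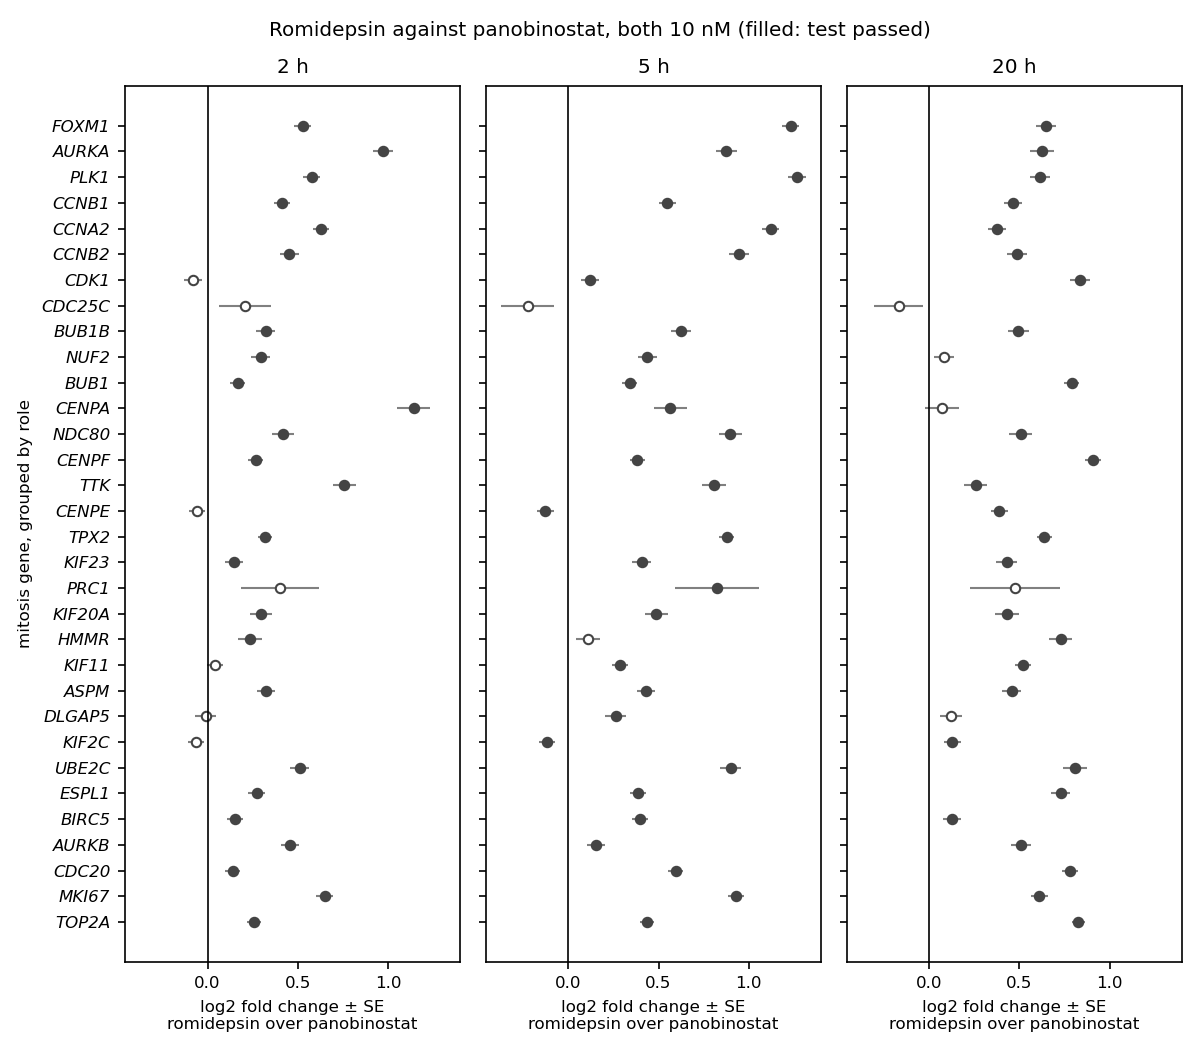
Log2 fold change ± SE of romidepsin over panobinostat, both at 10 nM, at 2, 5 and 20 h for 32 mitosis genes (rows, grouped by role; NUSAP1 is left out for its low counts); filled points passed the test. Most points lie right of 0 at each time, and the genes furthest right change from CENPA at 2 h to PLK1 and FOXM1 at 5 h and CENPF at 20 h.

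Successive times of an inhibitor do not use the DMSO libraries. From 2 to 5 h of panobinostat 25 genes were lower at the later time and 2 higher, beside 22.2% and 19.8% of all genes. For 20 h against 5 h 28 were lower and 1, TTK, was higher, beside 28.9% and 27.5%. With romidepsin 17 were lower and 1 higher at 5 h against 2 h, beside 11.9% and 8.40%, and 26 were lower and 1, TOP2A, was higher at 20 h against 5 h, beside 29.4% and 33.4%. Between 5 and 20 h the largest falls were ESPL1 with panobinostat, -1.65 ± 0.05, and FOXM1 with romidepsin, -1.86 ± 0.05 (adjusted p = 8.3e-58). TOP2A rose by 0.40 ± 0.04 with romidepsin (adjusted p = 4.9e-17), and with panobinostat it was at 0.01 ± 0.04 (adjusted p = 0.92). None of the 27 calls of romidepsin at 20 h against 5 h was lost when a library was left out.

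With ricolinostat 6 were lower and 2 higher at 5 h against 2 h, beside 8.58% and 6.69% of all genes, and 7 of these 8 calls were lost when 1 library was left out. At 20 h against 5 h 16 were higher and 3 lower, beside 17.2% and 20.7%. The largest rises were HMMR, 0.49 ± 0.06, TOP2A, 0.49 ± 0.04, and TTK, 0.40 ± 0.06. The genes that fell were KIF2C, -0.36 ± 0.04, CDC20, -0.27 ± 0.04, and KIF20A, -0.18 ± 0.06, whose call was lost without ricolinostat 5 h replicate 1 or ricolinostat 20 h replicate 1 or 2 (-0.17 to -0.06, adjusted p = 0.092 to 0.65). With panobinostat 23 genes were lower than DMSO at all 3 times, beside 13.0% of all genes. With romidepsin 2 were, BUB1 and CENPF, beside 2.54% of all genes, and their 2 h calls were lost without romidepsin 2 h replicate 1 or DMSO replicate 1 or 2 (-0.15 to -0.12, adjusted p = 0.091 to 0.26) for BUB1 and without romidepsin 2 h replicate 1 or DMSO replicate 2 (-0.14 without either, adjusted p = 0.089 to 0.094) for CENPF. With ricolinostat 5 were, beside 4.52% of all genes.

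The changes at 20 h are set beside the promoter elements as a description with no test. With panobinostat the median was -1.12 for the 20 genes with a TTTGAA match in the promoter window and -1.17 for the 7 without. With romidepsin it was -0.58 and -0.55. The 7 may hold other spellings of the CHR, which were not searched. CENPE, with neither searched motif in the sequence above, changed by -0.35 with panobinostat at 20 h, and CCNB1, with CCAAT matches alone, by -2.00. PLK1, with both, changed by -2.29. KIF11, also with both, fell less, to 148 and 152 CPM with panobinostat at 20 h, against 253 and 252 CPM in DMSO. With panobinostat the 20 genes with a match ranged from -2.29 to 1.08 (NUSAP1, at low counts) and the 7 without from -2.00 to -0.35. The named genes are examples and do not form an order by motif.

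Other genes of the pathway were counted in lists of their own. Of 112 tested genes in 5 lists of kinetochore, condensin and cohesin, anaphase-promoting complex, spindle and switch genes, 50, 75 and 84 were lower and 18, 18 and 19 higher with panobinostat at 2, 5 and 20 h. With romidepsin 12, 44 and 75 were lower and 8, 12 and 15 higher, and with ricolinostat 29, 31 and 39 were lower and 28, 22 and 16 higher. At 20 h the 84 lower (75.0%) and 19 higher of 112 with panobinostat stood beside 32.3% and 40.8% of all genes. With romidepsin 67.0% were lower and 13.4% higher, beside 29.9% and 38.6%, and with ricolinostat 34.8% and 14.3%, beside 16.4% and 14.7%. At 2 h 44.6% and 16.1% were lower and higher with panobinostat, 10.7% and 7.14% with romidepsin and 25.9% and 25.0% with ricolinostat, and at 5 h 67.0% and 16.1%, 39.3% and 10.7%, and 27.7% and 19.6%, to be read against the shares of all genes given above for these times. The medians at 20 h were -0.56, -0.43 and -0.068 with panobinostat, romidepsin and ricolinostat, beside 0.25, 0.22 and 0.032 for all genes. Among condensin and cohesin genes 17 of 20 were lower and 0 higher with panobinostat at 20 h (edgeR; also 0 higher at an unadjusted p under 0.05 and with DESeq2), and 15 lower and 3 higher with romidepsin. STAG2, a cohesin subunit, fell furthest there, with a mean of 42.7 CPM with panobinostat and 94.7 CPM with romidepsin, against 346.5 CPM in DMSO (log2 fold changes -3.02 ± 0.05 and -1.87 ± 0.05).

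Of 34 other kinetochore and checkpoint genes 22 were lower and 10 higher with panobinostat at 20 h, and 21 and 4 with romidepsin. PMF1, a subunit of the MIS12 complex, changed by -3.41 ± 0.10 and -2.64 ± 0.09, and NSL1, another subunit, by 1.05 ± 0.07 and 0.88 ± 0.07. Of 17 genes of the anaphase-promoting complex and its partners 10 were lower and 4 higher with panobinostat and 11 and 2 with romidepsin, with the subunit ANAPC13 at -2.29 ± 0.09 and -1.71 ± 0.09. ANAPC2 rose by 1.22 ± 0.05 with panobinostat and was at 0.06 ± 0.05 with romidepsin (adjusted p = 0.29). UBE2S, which extends ubiquitin chains, rose by 0.67 ± 0.04 and 0.74 ± 0.04. Of 27 other spindle and cytokinesis genes 24 were lower and 2 higher with panobinostat and 18 and 4 with romidepsin, while with ricolinostat 1 was lower and 10 were higher. GTSE1 changed by -1.67 ± 0.06 and -1.48 ± 0.06 with panobinostat and romidepsin, and CEP55, an abscission protein, rose by 0.21 ± 0.05 and 0.56 ± 0.05.

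Of 14 genes of the mitotic switch 11 were lower and 3 higher with panobinostat at 20 h and 10 and 2 with romidepsin. WEE1, the kinase that holds CDK1 inactive, changed by -2.22 ± 0.06 with panobinostat and -0.89 ± 0.05 with romidepsin, and CDC25A, a phosphatase that opposes it, by -1.25 ± 0.07 and -1.84 ± 0.07. NEK2, a centrosome kinase, was higher with each inhibitor, by 0.65 ± 0.05, 0.84 ± 0.05 and 0.17 ± 0.05 with panobinostat, romidepsin and ricolinostat. Of 18 regulators of the MuvB, DREAM and E2F families 13 were lower and 3 higher with panobinostat, 13 and 4 with romidepsin, and 8 and 2 with ricolinostat. E2F2 changed by -2.75 ± 0.05 with panobinostat and -2.15 ± 0.05 with romidepsin, and LIN37, a MuvB subunit, rose by 1.74 ± 0.18 and 1.23 ± 0.19. MYBL2, which encodes B-MYB, was lower with each inhibitor at 20 h, with a mean of 171 CPM with panobinostat, 184 CPM with romidepsin and 408 CPM with ricolinostat, against 576 CPM in DMSO. Its log2 fold changes were -1.75 ± 0.04, -1.64 ± 0.04 and -0.50 ± 0.04.

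**Figure D5:**
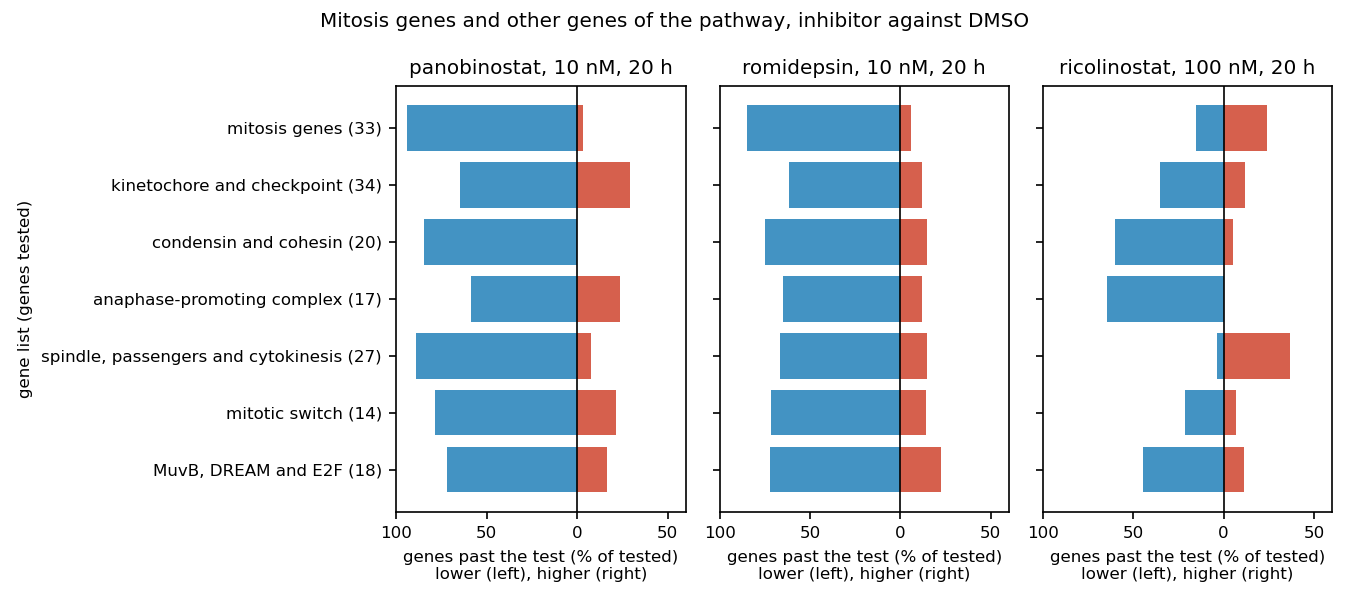
Percent of tested genes that were lower (blue, left) and higher (red, right) than DMSO at 20 h for the 33 mitosis genes and 6 lists of other pathway genes, with the number of genes tested in parentheses. With panobinostat 31 of 33 mitosis genes, 17 of 20 condensin and cohesin genes and 24 of 27 spindle genes were lower; with ricolinostat the spindle list had 1 lower and 10 higher.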

How the data were processed

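The authors deposited raw read counts per Ensembl gene for 20 libraries, and the submitters' processing notes name HISAT2, SAMtools, featureCounts and GRCh38. Not given in the sources used here are the annotation, the strand setting and the choice between reads and pairs. Counts were filtered with filterByExpr (minimum count 10), TMM-scaled and fitted with edgeR 4.0.16 (R 4.3.3) in a single robust quasi-likelihood model of 10 groups. The common dispersion was 0.00175. P-values are two-sided and adjusted by Benjamini-Hochberg within each of 18 contrasts. The edgeR test gives no SE, so each SE is the absolute log2 fold change divided by the square root of the F statistic. CPM are edgeR's values after scaling, and RPKM divides them by the exon length in GENCODE 29. The alternatives were DESeq2 1.42.0 and its size factors, library size alone, no filter, a replicate block and leaving out each library. The filter and the TMM scaling were repeated for each library left out. The method was run on simulated data in which few genes were altered, in a single group. Such data do not test the scaling where many genes change. The members and all gene lists were chosen with earlier results of these data known. Values of every library are printed for the genes with the largest and smallest summed absolute change at 20 h in each role and for genes with opposite calls within 1 inhibitor. NUSAP1, the largest of its role, is left out for its low counts. In the other lists the genes named had the largest rise or fall of their list at 20 h with at least 1 inhibitor, and at least 5 CPM in a group. Not all such genes are named. The study design calls the replicates independent, but no label names separate cultures, so the spread behind the p-values is that between libraries. In this fit the spread of a gene is pooled over the 10 groups and drawn strongly towards that of other genes (median prior degrees of freedom 87). The p-values and SEs therefore do not measure the spread of the 2 libraries of a group alone, which was widest with panobinostat at 2 h.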

Additional observations from a re-analysis of the deposited data

Results flagged for a closer look

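The difference between romidepsin and panobinostat, both at 10 nM and tested directly in the same fit, passed for 25 of the 33 mitosis genes at 2 h, 30 at 5 h and 27 at 20 h. Of all genes tested, 17.3% were higher and 19.8% lower with romidepsin at 2 h, 24.8% and 25.9% at 5 h, and 23.4% and 18.3% at 20 h. In a few genes the 2 inhibitors also had calls against DMSO in opposite directions. At 2 and 5 h ESPL1 was above DMSO with romidepsin and below it with panobinostat, and the log2 difference, romidepsin over panobinostat, was 0.27 at 2 h and 0.39 at 5 h. Its level was 208 and 212 CPM with romidepsin at 5 h and 157 and 164 CPM with panobinostat at 5 h. ASPM differed in the same way at 5 h, by 0.43, with 397 and 401 CPM with romidepsin and 293 and 298 CPM with panobinostat. TOP2A did so at 20 h, by 0.83, with 968 and 976 CPM with romidepsin and 541 and 555 CPM with panobinostat. These differences kept their calls when any 1 library was left out, whereas the calls against DMSO of ESPL1 at 2 h with both inhibitors and at 5 h with romidepsin, and that of TOP2A at 20 h with romidepsin, did not.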

How the results depend on the processing

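Changes under about 0.2 on the log2 scale often lost their call when 1 library was left out. Each such fit repeated the filter and the scaling on the libraries that remained, so its values can also carry a change of scaling. A call lost without a library therefore need not rest on the counts of that library. Over the 33 genes and 18 contrasts, direction and call were kept in 569 of 594 values with DESeq2, 566 with its size factors (RLE), 561 with no filter on low counts and 510 with library size as the only scaling, and in 2177 of the 2376 values that left out 1 library. With library size alone the median of all genes moved from 0.12 to 0.25 and from 0.25 to 0.56 for panobinostat at 5 and 20 h, from 0.019 to 0.15 and from 0.22 to 0.46 for romidepsin at 5 and 20 h, and from 0.032 to 0.14 for ricolinostat at 20 h. The share of all calls that were higher became 65.9% in place of 55.8% for panobinostat at 20 h and 65.6% in place of 43.4% for romidepsin at 2 h. The cause of the changes below was not tested. Against DMSO with library size alone, mitosis genes lower and higher numbered 0 and 6 for romidepsin at 2 h, 9 and 8 at 5 h, and 1 and 13 for ricolinostat at 20 h, and 4 were higher for romidepsin at 20 h. Without the filter, 1 was lower and 1 higher for romidepsin at 2 h, and 1 was higher for panobinostat at 2 h and at 5 h. With RLE and with DESeq2, 1 was higher for panobinostat at 2 h and 3 for ricolinostat at 2 h. Romidepsin against panobinostat at 5 h had 0 lower without the filter. Between 5 and 2 h, library size alone gave 5 higher for panobinostat, 3 for romidepsin, and 4 higher and 0 lower for ricolinostat, and no filter gave 1 higher for panobinostat and 1 for ricolinostat. Between 20 and 5 h, library size alone gave 3 higher for panobinostat and 4 for romidepsin, and RLE gave 2 for romidepsin. Leaving out 1 library gave 0 to 2 higher for panobinostat at 2 h and at 5 h, 0 to 2 lower and 1 to 2 higher for romidepsin at 2 h, 1 to 2 higher at 5 h and 0 to 2 at 20 h. It gave 3 higher for ricolinostat at 2 h, 2 to 6 at 5 h and 3 to 5 lower at 20 h. For romidepsin against panobinostat it gave 0 to 1 lower at 2 h and at 5 h. Between 5 and 2 h it gave 0 to 3 higher for panobinostat, 0 to 1 higher for romidepsin, and 1 to 10 lower and 1 to 2 higher for ricolinostat, and between 20 and 5 h 1 to 2 higher for romidepsin. The lower counts at 20 h stayed at 31 of 33 for panobinostat and 28 for romidepsin in every such fit, and were 30 and 22 with library size alone. With library size alone 7 genes turned: CDC20 to 0.0027 and KIF2C to 0.13 with romidepsin at 5 h, CENPF to 0.052, KIF11 to 0.0031, HMMR to 0.16 and ASPM to 0.014 with romidepsin at 20 h, and ESPL1 to 0.017 for panobinostat 5 h against 2 h. CENPE with panobinostat at 2 h ran from -0.15 to 0.14 when 1 library was left out, with the lowest value without panobinostat 2 h replicate 2. KIF23 with ricolinostat at 5 h ran from -0.17 to 0.058, with the lowest value without ricolinostat 5 h replicate 1. The replicate numbers did not pair the libraries (correlations of deviations between groups from -0.0961 to 0.0961). With a replicate block 593 of 594 values kept their call, and PRC1 for panobinostat 5 h against 2 h went to -0.56 (adjusted p = 0.052). Counts were low for NUSAP1, CDC25C and PRC1, with as few as 3, 164 and 41 in a library, and the overlaps given above also leave their levels uncertain.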
